A study of Sus scrofa with 6 samples.

Results

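The miR-221 and miR-222 locus gave 3 products in small RNA libraries of pig skin, namely ssc-miR-222 and both arms of miR-221, called ssc-miR-221-5p and ssc-miR-221-3p. They were found by name and are 3 of the 898 microRNAs (miRNAs) listed. The pigs belonged to the Xiang breed of Sus scrofa, with 3 libraries from black skin, coded S03 to S05, and 3 from white skin, coded S02, S06 and S07. All samples were whole skin freed of hair and stored in the preservative RNAwait at low temperature, and the labels state no genotype, age, sex, body site or animal. Replicates within a colour may thus be technical, and a p-value speaks only of the spread among the 6 libraries.

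A miRNA is cut from a hairpin precursor, whose 5′ and 3′ arms can each give a mature strand, of which usually 1 is kept and the other degraded. The kept strand pairs with messenger RNAs mainly through a short seed near its 5′ end and lowers their output. In mammals miR-221 and miR-222 lie side by side, are made from a shared primary transcript and carry the same seed. In human cells they repress KIT, a receptor that pigment cell precursors need, and the cell-cycle inhibitor CDKN1B, and they are abundant in melanoma, in endothelium and in vascular smooth muscle. The series set ssc-miR-221-3p against TYRP1, an enzyme of melanin synthesis. It screened for its candidates by sequencing, so the difference of this miRNA between the colours is not independent evidence for the choice. Messenger RNA was not analysed here.

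In the Sscrofa11.1 annotation the precursor MIR221 lies on chromosome X at 40571068 to 40571137 and MIR222 at 40571808 to 40571887, with 670 bases between them. No other annotated gene overlaps the pair. The nearest annotated genes are the pseudogene LOC106506953, 217411 bases away on the side of lower coordinates, and the long noncoding RNA LOC102166369, 21131 bases away on the other side. No row of the table had the same values in all libraries as any of the 3 miRNAs.

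Values are in RPM, reads scaled to 1e+06 listed miRNA reads, and whole reads could be recovered. Summed over rows they numbered 6454685 (S06) to 10165949 (S07) per library. Some rows, such as ssc-miR-218 and ssc-miR-218b, had equal means and SD, so a read may be counted more than once. The first principal component held 50.9% of the variance and separated the colours, and the second (20.3%) put S02, a white library, at -9.24, against -3.82 to 6.1 in the other libraries. Results are therefore also given without S02. The keratinocyte miRNA ssc-miR-205 averaged 14240 RPM in black skin, against 19830 RPM in white. Its groups overlapped and it was not called (limma, adjusted p = 0.204). The melanocyte miRNAs miR-211 and miR-137 had no row and were not analysed here. In the miRNAs of HOX clusters, which mark position along the body, 5 of 6 tested were called lower in black skin. Over all tested miRNAs the share called lower was 14 of 454 (3.08%). Without S03, S05 or S06, 3 HOX-cluster miRNAs were called. Their summed level was 11290 to 17390 RPM in black skin, against 19830 to 24510 RPM in white. The part of body position in the results below was not tested.

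ssc-miR-221-3p, the arm named by the series, was the most abundant product of the locus and fell in black skin. In black skin it stood at 424.1 (S03), 334.1 (S04) and 362.9 RPM (S05), against 614.5 (S02), 1147 (S06) and 974.2 RPM (S07) in white skin. Every black library lay below every white one, and the gap between the highest black and the lowest white library was 190.4 RPM. Among all 898 miRNAs it ranked 79, 87 and 90 in the black libraries and 68, 51 and 57 in the white ones, so it was a miRNA of middle to high abundance in both colours. The mean was 2.44-fold lower in black skin, and the difference in log2(RPM + 1), black minus white, was -1.24 (standard error 0.25, 95% interval -1.81 to -0.68). It passed the threshold of 0.05 (limma with Benjamini-Hochberg adjustment over 454 tested miRNAs, adjusted p = 0.0318). As whole skin was sequenced, fewer cells with this miRNA and less of it per cell cannot be told apart.

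The call held without S02 and was lost without any other library. Without S02, the white library nearest to the black ones, the difference was -1.50 (limma, adjusted p = 0.00468). Without S03, S04, S05, S06 or S07 the adjusted p was 0.052, 0.0731, 0.0898, 0.108 or 0.0672 by the same test, with differences of -1.34, -1.17, -1.23, -1.06 and -1.17. The direction was the same each time, and smaller groups also make the test weaker.

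ssc-miR-222, from the neighbouring hairpin and with the same seed, came second in abundance. In black skin it stood at 290.5 (S03), 198.6 (S04) and 316.4 RPM (S05), against 315.7 (S02), 619.4 (S06) and 430 RPM (S07) in white skin. The groups overlapped, since the highest black library, S05, lay just above the lowest white one, S02. The difference of -0.73 (standard error 0.29, 95% interval -1.38 to -0.09) did not pass after adjustment (limma, adjusted p = 0.152, unadjusted p = 0.0306). Without S02 it was -0.97 (limma, adjusted p = 0.068).

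ssc-miR-221-5p, cut from the other arm of the miR-221 hairpin, was the scarcest of the 3. In black skin it stood at 119.5 (S03), 100.9 (S04) and 127.8 RPM (S05), against 136.3 (S02), 157.3 (S06) and 155.7 RPM (S07) in white skin. The groups did not overlap, but the gap was 8.52 RPM, with a counting error of 3.84 RPM in S05 and 4.32 RPM in S02 (SD). The difference of -0.37 (standard error 0.21, 95% interval -0.84 to 0.10) did not pass (limma, adjusted p = 0.31), nor without S02 (-0.43, adjusted p = 0.245).

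**Figure D1:**
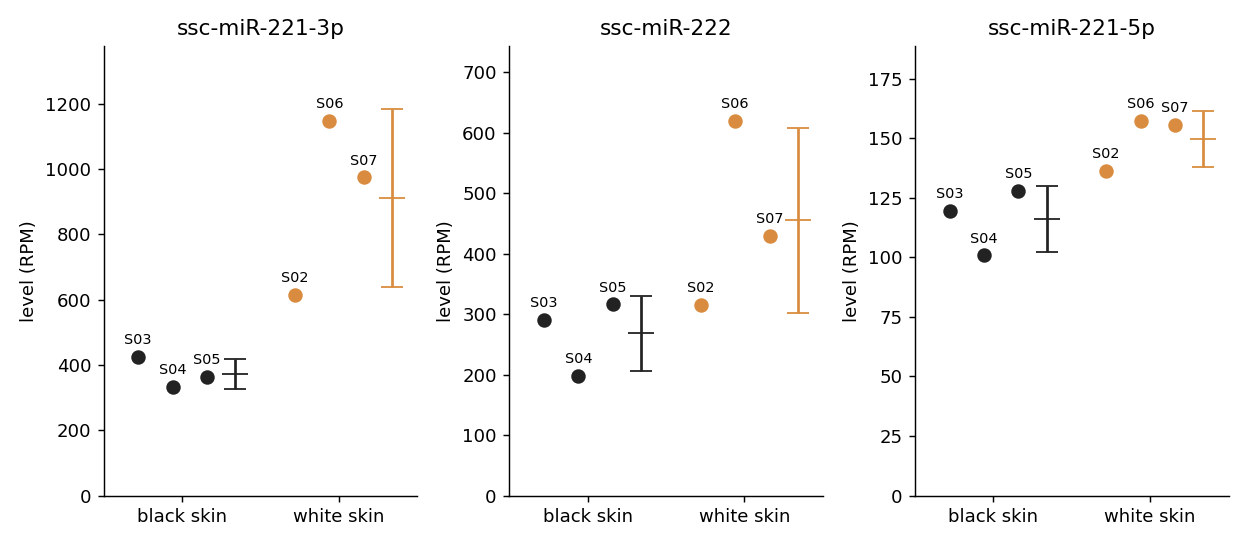
Level in RPM of the 3 miRNAs in each library (points, labelled), with group mean and SD (bars to the right of the points, n = 3), black skin left and white skin right. ssc-miR-221-3p lies between 334.1 and 424.1 RPM in black skin and between 614.5 and 1147 RPM in white skin, ssc-miR-222 overlaps between the colours, and ssc-miR-221-5p is separated by 8.52 RPM.

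Read against all miRNAs, 1 of the 3 products was called, where 32 of 454 tested (7.05%) were called in either direction and 14 (3.08%) lower in black skin. With predicted miRNAs left out before scaling, 19 of 35 calls were lower. Of the 3, 2 had no overlap between the colours, both lower in black skin. Among all tested miRNAs 124 (27.3%) had no overlap, 63 (13.9%) of them lower in black skin. In order of the difference, from the most negative, ssc-miR-221-3p stood at place 11 of 454, ssc-miR-222 at place 39 and ssc-miR-221-5p at place 99. The median difference of all tested miRNAs was 0.00, so the 3 products lay below the bulk by close to their own differences. With predicted miRNAs left out before scaling, that median was -0.14 and the 3 differences were -1.33, -0.82 and -0.46.

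**Figure D2:**
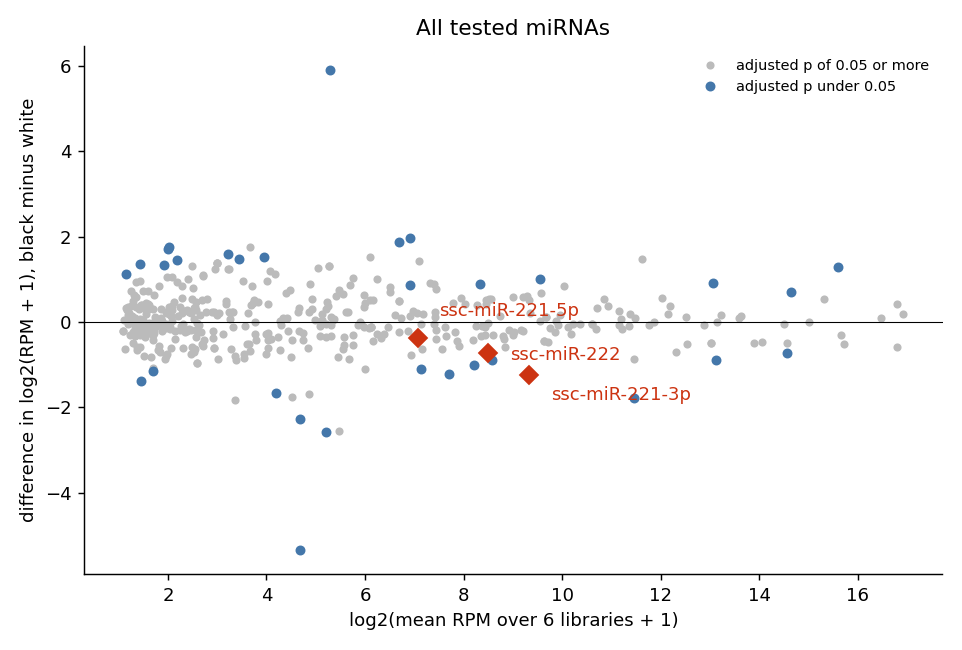
Difference in log2(RPM + 1), black minus white, against mean abundance for the 454 tested miRNAs; blue points passed the adjusted threshold of 0.05 and the red diamonds are the 3 products of the locus. All 3 lie below 0, in the order ssc-miR-221-3p (-1.24), ssc-miR-222 (-0.73) and ssc-miR-221-5p (-0.37), and the first of them passed.

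The 3 products kept the same order of abundance in all 6 libraries, ssc-miR-221-3p above ssc-miR-222 above ssc-miR-221-5p. Within the colours their order of libraries was alike in part. In black skin S04 was lowest for all 3, but S03 was highest for ssc-miR-221-3p and S05 for the other products. In white skin S02 was lowest and S06 highest for all 3, though for ssc-miR-221-5p S06 and S07 differed by less than their counting errors (SD 4.94 and 3.91 RPM). The spread between libraries was above counting error for each product. For ssc-miR-221-3p the coefficient of variation was 12.3% in black and 29.8% in white skin, while counting alone gives 1.84% and 1.17%. For ssc-miR-222 it was 23.1% in black and 33.7% in white skin, where counting gives 2.16% and 1.68%. For ssc-miR-221-5p it was 11.9% in black and 7.80% in white skin, where counting gives 3.29% and 2.89%.

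Together the 3 products held 834.1, 633.6 and 807 RPM in S03, S04 and S05 of black skin, against 1067, 1924 and 1560 RPM in S02, S06 and S07 of white skin. The listed products of the locus therefore had a lower summed output in each black library than in any white one. ssc-miR-222 and the 3p arm of miR-221, taken to carry the shared seed, held 0.0642 ± 0.00964% of the reads in black and 0.137 ± 0.0419% in white skin (SD, n = 3). No test was made of these sums.

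The make-up of that output differed too. ssc-miR-221-3p gave 49.5 ± 4.05% of the reads of the locus in black and 59.9 ± 2.43% in white skin (SD, n = 3). ssc-miR-222 gave 35.1 ± 3.94% in black and 29.8 ± 2.32% in white skin, with overlap, and ssc-miR-221-5p gave 15.4 ± 0.90% in black and 10.3 ± 2.32% in white skin (SD, n = 3). Thus the 5p arm held the smallest share in every library, but a larger one in each black library (14.3 to 15.9%) than in any white one (8.17 to 12.8%). Since the shares add up to the whole, they are not independent of each other.

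The ratio of the 2 arms compares strands of a single hairpin and does not depend on the scaling of a library. There were 3.55, 3.31 and 2.84 reads of ssc-miR-221-3p for each read of ssc-miR-221-5p in S03, S04 and S05 of black skin, against 4.51, 7.30 and 6.26 in S02, S06 and S07 of white skin. The 3p arm dominated in all libraries, and less so in every black library. Such separation of the colours was not particular to miR-221. It was common among the 41 hairpins and does not set miR-221 apart. Every hairpin whose ratio passed had it. So did many that did not pass, such as miR-143, miR-769, miR-708, miR-199b, miR-30e, miR-361, miR-374a and let-7d. Its exact share was not counted. The difference in log2 ratio was -0.88 (standard error 0.26, 95% interval -1.44 to -0.31), and among 41 hairpins with both arms tested it was 1 of 5 whose ratio passed, or 12.2% (limma, adjusted p = 0.0431). The others were miR-193a and miR-142, with more of the 3p arm in black skin (1.87 and 1.37), and miR-455 and miR-27b, with less (-1.49 and -1.34). By size the change of miR-221 was sixth. Without S02 it was -1.07 (limma, adjusted p = 0.00707) and without S03 -0.95 (0.0448). The call was lost without S04, S05, S06 or S07 (limma, adjusted p = 0.0739, 0.131, 0.142 and 0.158), with a pseudocount of 0.1 (0.0629) and with no filter on low values (0.0578). The number of called hairpins was 3 without S05, S06 or S07 and 3 with that pseudocount.

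**Figure D3:**
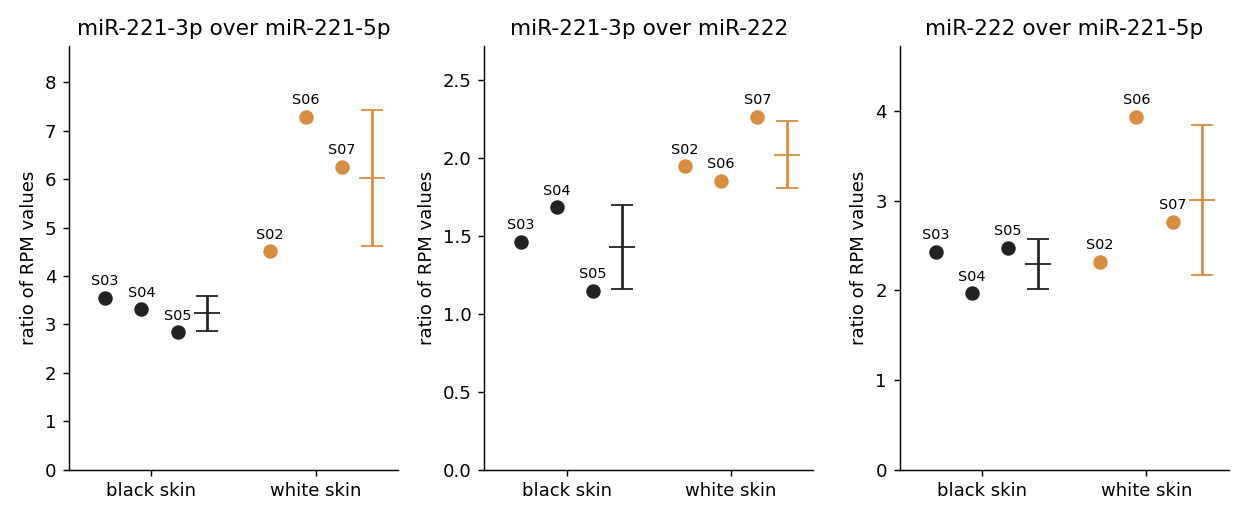
Ratios of RPM values between products of the locus in each library (points, labelled), with group mean and SD (bars to the right, n = 3), black skin left and white skin right. The ratio of ssc-miR-221-3p to ssc-miR-221-5p is 2.84 to 3.55 in black and 4.51 to 7.30 in white skin, that of ssc-miR-221-3p to ssc-miR-222 is 1.15 to 1.68 and 1.85 to 2.27, and that of ssc-miR-222 to ssc-miR-221-5p overlaps.

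**Figure D4:**
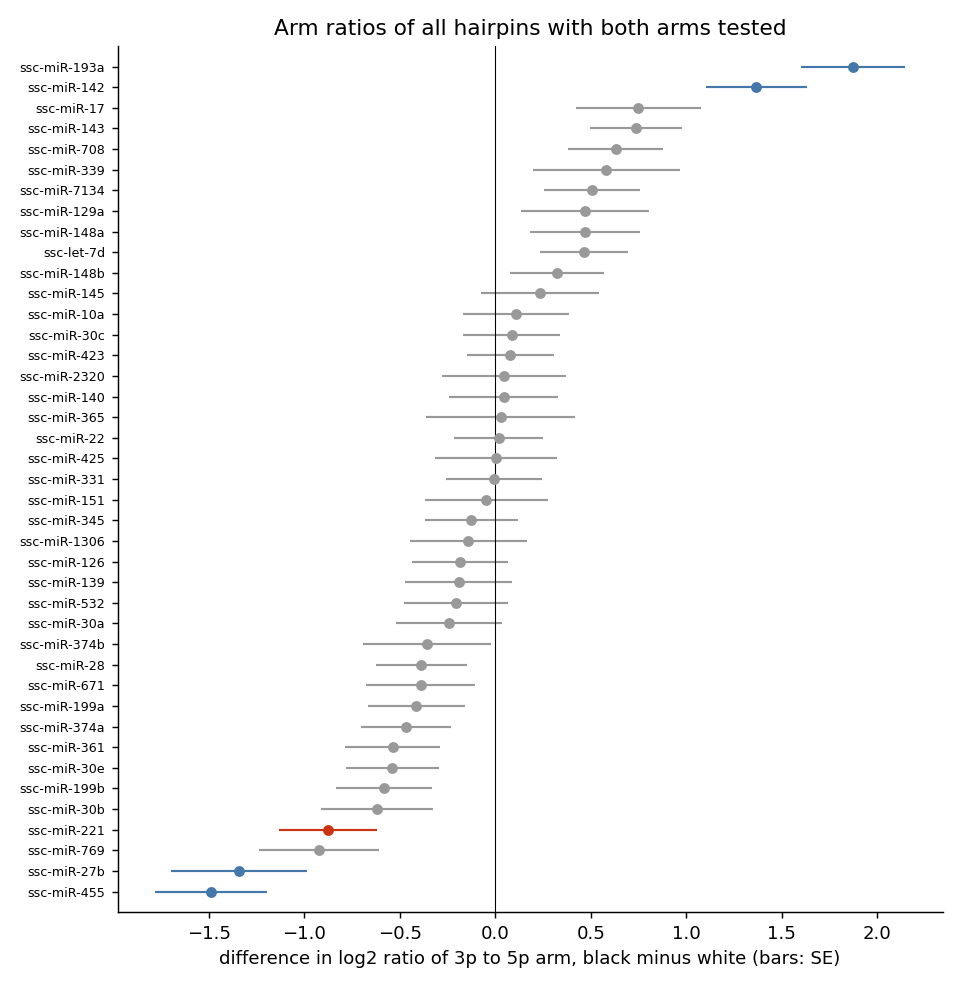
Difference between black and white skin in log2(3p/5p), the arm ratio, for 41 hairpins, with standard errors; red is miR-221, blue are the other hairpins that passed and grey those that did not. The miR-221 ratio is lower in black skin by 0.88 on the log2 scale (difference -0.88), behind miR-455 and miR-27b and close to miR-769 (-0.92), which did not pass.

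The ratio of ssc-miR-221-3p to ssc-miR-222 compares listed products of the neighbouring hairpins. It was 1.46, 1.68 and 1.15 in S03, S04 and S05 of black skin, against 1.95, 1.85 and 2.27 in S02, S06 and S07 of white skin. The groups did not overlap, but the difference in log2 ratio of -0.51 (standard error 0.24, 95% interval -1.06 to 0.03) did not pass. It was tested among 57 pairs of miRNAs whose precursors lie within 10 kb of each other (limma, adjusted p = 0.172). Freedom from overlap was common among the 57 pairs and does not set this ratio apart. Every pair that passed had it. So did others that did not pass, such as ssc-miR-96-5p over ssc-miR-182, ssc-miR-99a over ssc-let-7c, ssc-miR-195 over ssc-miR-497 and ssc-miR-183 over ssc-miR-182. The exact share of such pairs was not counted. The ratio of ssc-miR-222 to ssc-miR-221-5p was 2.43, 1.97 and 2.48 in S03, S04 and S05 of black skin, against 2.32, 3.94 and 2.76 in S02, S06 and S07 of white skin, with overlap. Coded the other way, as ssc-miR-221-5p over ssc-miR-222, its difference was 0.36 (standard error 0.27; limma, adjusted p = 0.353). A shift of ssc-miR-221-3p relative to its own 5p arm thus passed, and its shift relative to ssc-miR-222 did not. Whether these shifts differ from each other was not tested.

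Ratios between neighbours changed in other clusters. Of the 57 pairs 13 passed (22.8%), led by ssc-miR-451 over ssc-miR-144 (-2.12), ssc-miR-206 over ssc-miR-133b (-2.84) and ssc-miR-450b-5p over ssc-miR-450a (-1.04) (limma, adjusted p = 0.0032, 0.021 and 0.021). Many pairs share a miRNA and are not independent. The count fell to 2 of 60 without S03, 6 of 57 without S04, 2 of 60 without S06, 1 of 60 without S07 and 8 of 57 with a pseudocount of 0.1.

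The miRNAs whose profile over the 6 libraries was nearest to each product were found by the root mean square distance between log2(RPM + 1) values, each centred on its own mean. For ssc-miR-221-3p these were ssc-miR-181b (distance 0.21), ssc-miR-615 (0.26) and ssc-miR-320 (0.26), while the median over the 241 other named miRNAs was 0.75. Likeness over both colours favours miRNAs with a similar difference between them, so their direction is no separate result. ssc-miR-615, a HOX-cluster miRNA, was scarce (0.501 RPM in black skin, against 2.94 RPM in white), and its distance depends on the pseudocount. ssc-miR-222 stood at place 5 (0.31) and ssc-miR-221-5p at place 26 (0.49). Nearest to ssc-miR-222 were ssc-miR-9841-3p (0.25), ssc-miR-505 (0.25) and the epithelial ssc-miR-429 (0.27), against a median of 0.60, with ssc-miR-221-5p and ssc-miR-221-3p at places 6 and 7. Nearest to ssc-miR-221-5p were ssc-miR-423-5p (0.12), ssc-let-7e (0.13) and ssc-miR-7134-3p (0.13), with ssc-miR-222 at place 78 (0.31) and ssc-miR-221-3p at place 161 (0.49). The median for ssc-miR-221-5p was 0.40, so its own 3p arm lay farther from it than the typical named miRNA did. These distances describe 6 libraries and carry no test.

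The locus lies on chromosome X, as do all matched precursors of 29 tested miRNAs with a miRBase-style name, the 3 products included. Predicted miRNAs were left out here. Of the 26 others 4 rose in black skin (ssc-miR-374a-5p, ssc-miR-450a, ssc-miR-542-3p and ssc-miR-450c-5p, by up to 1.59), 1 fell (ssc-miR-224, difference -2.28) and 21 were not called. Thus 5 of 26 (19.2%) were called, against 26 of all 242 tested named miRNAs (10.7%), with medians of -0.09 and -0.05. Several of the 26 come from the same hairpin or cluster, and the 2 shares were not tested against each other. X-linked miRNAs were thus called in both directions. The 6 X-linked calls, ssc-miR-221-3p included, were 6 again without S02, 2 without S04, 1 without S07 and 0 without S03, S05 or S06.

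No other miRNA of a list known to act on pigment cells was called lower in black skin. Of the 24 names on that list, the locus left out, 15 had rows and gave 19 tested miRNAs. Of these 2 rose in black skin, ssc-miR-27a (0.92) and ssc-miR-143-3p (1.29), none fell and 17 did not pass (limma, adjusted p = 0.0324 and 0.00314 for those that rose), with a median of 0.36. The calls on this list, all higher, numbered 4 without S02 and 1 without any other library. ssc-miR-143-3p is best known from smooth muscle. A list of 7 other names linked to KIT had rows for 4, which gave 6 tested products, opposite arms included. Of these 1 rose, ssc-miR-193a-3p (1.48; limma, adjusted p = 0.0329), and 5 did not pass. That call was lost on leaving out S03, S04, S05, S06 or S07. ssc-miR-193a-3p averaged 14.9 RPM in black skin, against 4.80 RPM in white, far below ssc-miR-221-3p. For the median of 0.36 the value over all tested miRNAs is 0.00, and 18 of 454 were called higher. Only 14 of 454 (3.08%) were called lower. A list of 19 with none called lower is thus near that share and does not set the locus apart.

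Markers of cell types in skin moved in part with the colours. Over all 454 tested miRNAs 18 (3.96%) were called higher and 14 (3.08%) lower, against which the counts below stand. Of 6 vascular wall miRNAs 3 rose in black skin, ssc-miR-143-3p, ssc-miR-126-3p and ssc-miR-126-5p, and none fell. The 6 are opposite arms of 3 named miRNAs, with both arms of miR-126 among the calls, so they are not independent of each other. Without S03, S04, S05 or S06, and by edgeR, 1 was called. Their summed level was 96230 to 120000 RPM in black skin, against 44360 to 58090 RPM in white, higher where the locus was lower. The leukocyte list had 1 of 5 called (ssc-miR-142-3p, higher), with sums of 3087 to 5239 RPM in black skin, against 2382 to 4860 RPM in white. Of 5 epithelial miRNAs none was called, with sums of 18740 to 25750 RPM in black skin, against 23480 to 34650 RPM in white. The fibroblast and mesenchymal list had 1 of 8 called (ssc-miR-214, lower). It summed to 32310 to 42080 RPM in black skin, against 34180 to 51130 RPM in white. In this list the 3p arms of miR-199b and miR-199a had equal means (6919 RPM in black skin, 9796 RPM in white) and equal SD. Their reads may thus enter these sums more than once, and the 8 rows may not all be separate measurements. By limma on all libraries no erythroid miRNA of 3 and no striated muscle miRNA of 5 was called, with sums of 994.5 to 4298 and 959.3 to 1604 RPM in black skin and 1723 to 4914 and 677.7 to 2017 RPM in white skin. The largest differences among these were -2.56 for ssc-miR-206, at 9.19 RPM in black skin and 77.8 RPM in white skin, and -1.68 for ssc-miR-486 (limma, adjusted p = 0.0804 and 0.0743). Other members of these lists went the other way. In striated muscle ssc-miR-133a-3p (0.53), ssc-miR-499-5p (0.43) and ssc-miR-133b (0.28) were higher in black skin, and ssc-miR-1 was at -0.12. Among the erythroid miRNAs ssc-miR-144 was at 1.24 and ssc-miR-451 at -0.87. In striated muscle 1 was called lower by edgeR and without S02, and in the erythroid list 1 without S05. The melanocyte list without the locus was measured by ssc-miR-146a-5p (0.19) and ssc-miR-204 (0.82) alone, and neither was called (limma, adjusted p = 0.744 and 0.0804). It summed to 2274 to 3804 RPM in black skin, against 1863 to 3597 RPM in white. Most of that sum was ssc-miR-146a-5p, with a mean of 2802 RPM in black skin, against 2503 RPM in white. This miRNA is also the most abundant member of the leukocyte list, so the sums of these lists are not independent. ssc-miR-204 averaged only 116.3 RPM in black skin, against 64.46 RPM in white, with no overlap. The melanocyte sum thus mainly follows ssc-miR-146a-5p and is no separate measure of melanocytes. No listed marker with a row was at 0 in all libraries. The leukocyte call was lost without S03, S05 or S06, and the mesenchymal one without any library but S02 and with TMM factors. The part of cell make-up in the levels of the locus was not tested.

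**Figure D5:**
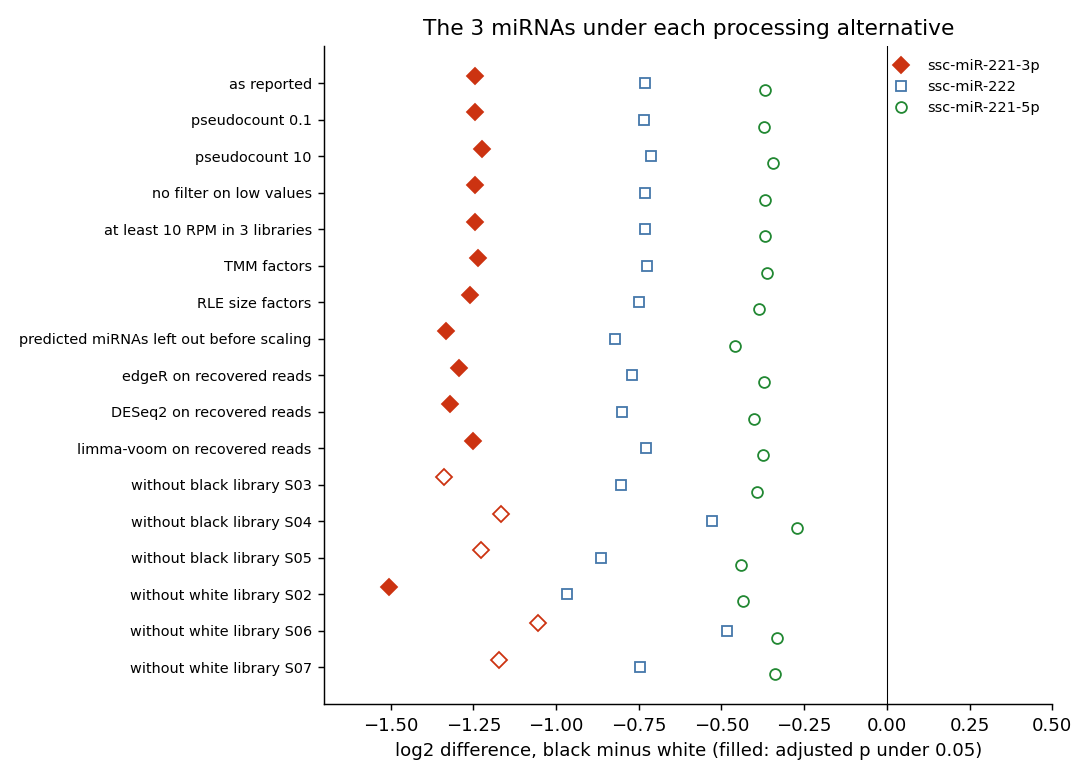
Difference in log2 level, black minus white, of the 3 miRNAs as reported and under 16 processing alternatives; filled symbols have an adjusted p under 0.05. ssc-miR-221-3p stays between -1.50 and -1.06 and is filled except without S03, S04, S05, S06 or S07, while ssc-miR-222 and ssc-miR-221-5p stay below 0 and are open throughout.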

How the data were processed

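The authors deposited 1 table whose 6 columns each sum to 1e+06, so its unit was taken as RPM. The submitters' processing notes name Bowtie and Sscrofa11.1 and say nothing of their use. How reads were counted, and on which miRNA database, is not given in the sources used here. Each value (100%) was a whole number of reads times a constant of its library (tolerance 0.001), which gave back the read numbers. No 2 libraries agreed within sampling noise (smallest chi-square per degree of freedom 255). The main test was limma 3.58.1 (R 4.3.3), with an abundance trend, on log2(RPM + 1), a scale that understates changes of scarce miRNAs. The 454 miRNAs kept by filterByExpr of edgeR 4.0.16 (minimum count 10, minimum total 15) were tested, with Benjamini-Hochberg adjustment. As RPM are shares, abundant miRNAs that change move the rest. Log2 ratios of arms and of neighbouring precursors (RefSeq annotation of Sscrofa11.1, by distance, as no strand is given) were fitted likewise without a trend. List members were matched by name without arm, and the text names all called ones, up to 4 a list. Likeness names the 3 nearest miRNAs. Recovered reads were also tested with edgeR (30 calls), DESeq2 1.42.0 and limma-voom. Scripts were tested on simulated data. The 3 miRNAs and the lists were chosen with earlier results of these data known. Mature sequences were not used here.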

Additional observations from a re-analysis of the deposited data

How the results depend on the processing

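All 3 miRNAs stayed lower in black skin under all 16 alternatives run (pseudocount, filter, scaling, feature set, 3 count-based tests and 6 fits without 1 library). Without 1 library at a time the difference ranged from -1.50 to -1.06 for ssc-miR-221-3p, from -0.44 to -0.27 for ssc-miR-221-5p and from -0.97 to -0.48 for ssc-miR-222. That of the arm ratio ranged from -1.07 to -0.72, that of ssc-miR-221-3p over ssc-miR-222 from -0.64 to -0.36 and that of the seed family share from -0.0943 to -0.0525 points. The arm ratio kept its difference but lost its call with a pseudocount of 0.1 (-0.88, limma, adjusted p = 0.0629) and with no filter (-0.88, 0.0578). It kept it with a filter of 10 RPM in 3 libraries (0.012), a pseudocount of 10 (0.0175) and 2 settings chosen after seeing the data, an intensity trend (adjusted p = 0.0114) and both arms at a mean of 10 RPM or more (0.0153). The cause was not tested. Called miRNAs numbered 7 to 41 and X-linked calls 0 to 6 without 1 library. DESeq2 called 52 (33 higher, 19 lower), against 32 (18 higher, 14 lower). The share of higher calls moved by over 10 points with predicted miRNAs left out (16 higher, 19 lower), and edgeR gave 13 higher and 17 lower. No paired analysis was possible because black and white libraries have no code in common. There are 3 libraries a colour, and the spread between them was larger than counting error for each of the 3 miRNAs.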
